A study of Mus musculus with 4 samples.

Results

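Microglia are described here in single-cell RNA-sequencing data from the mouse telencephalon at P5. They were selected on raw UMI counts (a UMI, or unique molecular identifier, is a tag given to each captured transcript). Kept barcodes held between 2000 and 40000 UMIs from no fewer than 1000 genes, with a mitochondrial share of no more than 10%. A kept barcode was called microglia with at least 10 UMIs of *C1qa*+*C1qb*+*C1qc*, at least 3 of *Cx3cr1*+*P2ry12* and at most 2 of *Mrc1*+*Pf4*. The rule found 158 microglia among 17623 kept barcodes (0.897%) of 27742 deposited ones.

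The study sorted tdTomato-positive cells from C57BL/6 mice of the genotypes NestinCreERT2/tdTomato/Chd8+/+ (control) and NestinCreERT2/tdTomato/Chd8+/F (mutant). Both genotypes carried the reporter and the tamoxifen-inducible Cre driven by Nestin, and both received tamoxifen at E14.5, which in the mutants also recombined 1 floxed allele of *Chd8*, a chromatin remodeler. There were 2 libraries per genotype (replicates 1 and 2), each pooled from 3 mice, so the spread between mice was not measured and P-values here compare libraries. The labels call the sorted cells neuronal.

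Microglia are the resident macrophages of the brain. They arise from yolk sac progenitors and enter the neural tube in the embryo, outside the lineage of Nestin-positive neural progenitors. In the first postnatal week they divide, engulf dying cells and synapses and survey the tissue through purinergic and chemokine receptors. Their survival depends on signaling through the receptor *Csf1r*. How microglia passed the tdTomato gate was not tested, and their share among sorted cells is therefore a share of what that gate let through, not of the tissue.

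Control replicate 1 yielded 83 microglia, mutant replicate 1 yielded 31, control replicate 2 yielded 17 and mutant replicate 2 yielded 27. Control replicate 1 thus held 52.5% of the cells and 59.3% of their UMIs, and values pooled over cells lean on that library. The microglia of the control libraries held 1112860 and 150843 UMIs in replicates 1 and 2, and those of the mutant libraries held 412637 and 201067. The median per cell was 12010 and 8712 UMIs in the controls and 11960 and 5952 UMIs in the mutants. The median mitochondrial share was 2.31% and 2.60% in control and mutant replicate 1, and 7.36% and 4.31% in control and mutant replicate 2. The matrices of replicate 1 came from another version of the counting software than those of replicate 2, and the libraries of replicate 2 held the female-specific transcript *Xist*, so that replicate, software and sex cannot be told apart. Between 2 and 15 kept barcodes were shared by any pair of libraries, none of them a microglia barcode in both.

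The members just inside and outside the limits were unevenly spaced. No kept barcode that met the other limits had 10 to 14 C1q UMIs, 4 had 15 to 29, and 2 lay outside with 5 to 9. There were 7 members with 3 to 5 *Cx3cr1*+*P2ry12* UMIs, against 12 barcodes outside with 0 to 2. The *Mrc1*+*Pf4* limit crossed a continuous range, with 30 members at 2 UMIs and 17 barcodes just outside at 3.

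**Figure D1:**
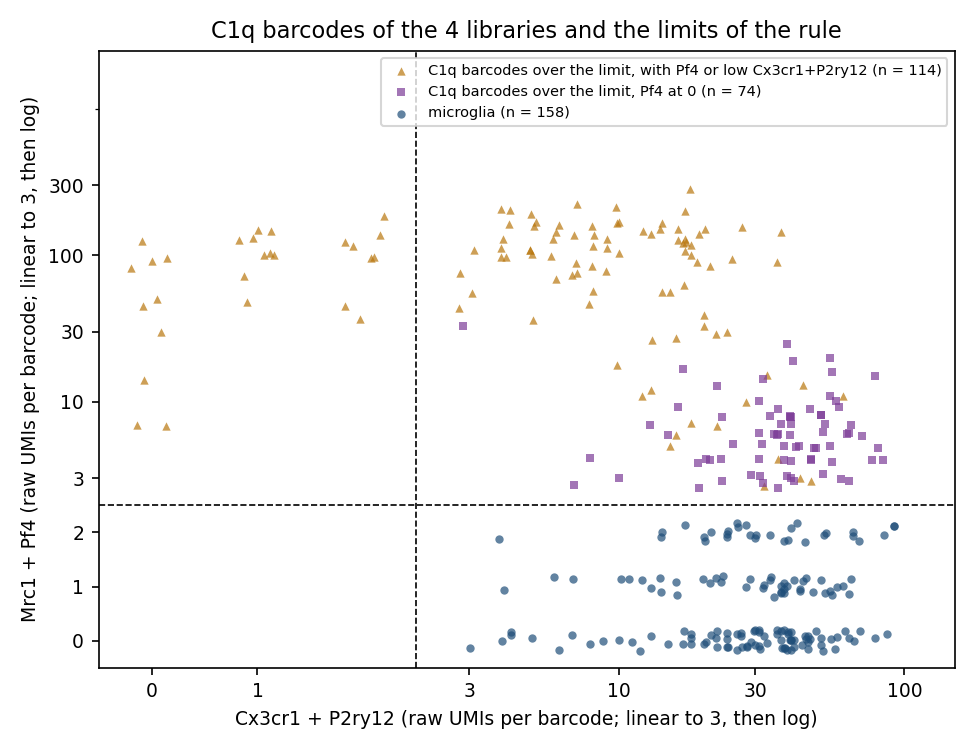
Raw UMIs of *Cx3cr1*+*P2ry12* (horizontal axis) and *Mrc1*+*Pf4* (vertical axis) in the C1q barcodes of the 4 libraries, both axes linear to 3 and logarithmic above, with points jittered and the limits of the rule as dashed lines. The 158 microglia lie below the horizontal line, and the 74 barcodes with *Pf4* at 0 lie above it, from 3 to 33 UMIs of *Mrc1*+*Pf4*.

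The level of a gene is given below as UMIs per 1000000 UMIs of the microglia of a library (CPM). The genes that chose the members had to be high, and their levels are a description. *C1qa*, *C1qb* and *C1qc* encode the chains of C1q, the first component of the classical complement pathway, and lie next to each other on the minus strand of chromosome 4 (mm10, *C1qa* at 136895917 to 136898803, *C1qc* at 136889804 to 136893065, *C1qb* at 136880129 to 136886187). *C1qa* was at 4110 and 4480 CPM in control replicates 1 and 2 and at 3040 and 4610 CPM in mutant replicates 1 and 2. *C1qb* was at 3620 and 3950 CPM in the controls and 3000 and 4900 CPM in the mutants. *C1qc* was at 4280 and 3710 CPM in the controls and 3760 and 3880 CPM in the mutants. For each chain the genotypes overlapped, and mutant replicate 1 was the lowest library for *C1qa* and *C1qb*. *Cx3cr1* (chromosome 9), the receptor for the neuronal chemokine fractalkine, was at 1630 and 3470 CPM in the controls and 1850 and 2990 CPM in the mutants, with both libraries of replicate 2 above both of replicate 1. *P2ry12* (chromosome 3), the ADP receptor that steers microglial processes, was at 780 and 935 CPM in the controls and 923 and 1270 CPM in the mutants.

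The promoter windows of some genes that carry the microglial signature or the differences below are shown for reference, from 250 bases before to 50 bases after the start of the gene (RefSeq, GRCm38.p6, 5′ to 3′ on the strand of the gene). Only windows that hold the run marked in them are shown, so they are no measure of how often it occurs. Others, such as those of *Cx3cr1* and *Il1a*, are not shown, and *Spp1* had 2 windows, of which the first is shown. Capitals mark AGGAAGT or its reverse complement ACTTCCT, the core bound by ETS factors such as PU.1 (*Spi1*), the factor that macrophages require, and in *Cxcl10* they mark GAAA followed after any 2 bases by another GAAA, the spacing of an interferon-stimulated response element.
C1qb, chr4:136886151-136886450, minus strand: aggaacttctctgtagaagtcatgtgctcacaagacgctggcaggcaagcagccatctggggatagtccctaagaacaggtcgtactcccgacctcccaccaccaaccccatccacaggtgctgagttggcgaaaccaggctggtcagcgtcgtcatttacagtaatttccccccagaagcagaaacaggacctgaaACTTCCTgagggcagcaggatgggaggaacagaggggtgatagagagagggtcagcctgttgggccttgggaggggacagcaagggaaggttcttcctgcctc
C1qc, chr4:136892865-136893164, minus strand: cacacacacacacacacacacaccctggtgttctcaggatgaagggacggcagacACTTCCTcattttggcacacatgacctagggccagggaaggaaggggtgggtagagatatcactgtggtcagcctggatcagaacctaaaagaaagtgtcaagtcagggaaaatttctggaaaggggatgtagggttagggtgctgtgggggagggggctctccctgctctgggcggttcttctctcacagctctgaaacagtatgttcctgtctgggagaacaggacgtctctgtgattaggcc
P2ry12, chr3:59262936-59263235, minus strand: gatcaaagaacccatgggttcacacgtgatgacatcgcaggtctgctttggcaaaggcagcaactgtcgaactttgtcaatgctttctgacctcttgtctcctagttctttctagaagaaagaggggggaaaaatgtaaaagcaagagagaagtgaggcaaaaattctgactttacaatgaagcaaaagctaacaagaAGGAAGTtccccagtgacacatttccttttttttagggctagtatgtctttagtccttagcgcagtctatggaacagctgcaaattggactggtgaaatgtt
Spp1, chr5:104434861-104435160, plus strand: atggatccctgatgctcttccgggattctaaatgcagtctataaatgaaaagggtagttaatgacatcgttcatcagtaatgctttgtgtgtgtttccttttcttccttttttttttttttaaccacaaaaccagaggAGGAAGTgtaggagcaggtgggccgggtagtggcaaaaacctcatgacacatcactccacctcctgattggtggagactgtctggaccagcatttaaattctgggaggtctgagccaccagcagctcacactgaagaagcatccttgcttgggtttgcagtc
Cxcl10, chr5:92348840-92349139, minus strand: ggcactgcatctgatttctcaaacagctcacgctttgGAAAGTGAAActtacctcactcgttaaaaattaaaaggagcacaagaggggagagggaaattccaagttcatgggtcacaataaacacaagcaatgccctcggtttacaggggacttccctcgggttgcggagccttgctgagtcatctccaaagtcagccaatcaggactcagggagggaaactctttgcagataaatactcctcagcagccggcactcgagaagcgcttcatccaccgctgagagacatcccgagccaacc
AGGAAGT on either strand was present in 9.35% of the 32851 promoter windows of the mouse genome and the spaced GAAA pair on either strand in 3.44%. Counted by gene, the shares were 10.7% and 3.99% of 27025 genes. Of the 15 microglia identity genes listed for this work, 10 had a promoter window and 3 of these held AGGAAGT. *C1qb* and *C1qc*, shown above, are not among the 15. A match is a run of letters and was not tested as a binding site.

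All 15 microglia identity genes were detected in each of the 4 libraries, from 29.1 CPM upward (*Slc2a5*, mutant replicate 1). *Sall1*, the transcription factor that keeps microglia distinct from other macrophages, was at 185 and 225 CPM in the controls and 184 and 214 CPM in the mutants. *Fcrls* was at 1360 and 1840 CPM in the controls and 1250 and 2170 CPM in the mutants. *Sparc*, a matricellular protein, was at 1280 and 2130 CPM in the controls and 1580 and 2740 CPM in the mutants. *Tmem119*, which is acquired as microglia mature, was at 82.7 and 239 CPM in the controls and 121 and 283 CPM in the mutants. Its UMIs were found in 53.0% and 70.6% of control cells and 58.1% and 77.8% of mutant cells, although the cells of replicate 2 held fewer UMIs, and in none of the neuron-rich barcodes of any library (kept barcodes with 30 or more UMIs of *Dcx*+*Stmn2*+*Gap43*, genes of young neurons, median 11600 and 8672 UMIs in the controls and 11780 and 10410 in the mutants). Of the 15 genes, none was called between the genotypes, and neither was any other of the 5212 genes tested. The 15 include *C1qa*, *Cx3cr1* and *P2ry12*, whose UMIs chose the members, so for these the levels are a description.

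All 19 listed pan-macrophage genes were detected in every library at 139 CPM or more (*Runx1*, control replicate 2). *Tyrobp*, the signaling adaptor of *Trem2*, was at 3050 and 2590 CPM in the controls and 2340 and 2440 CPM in the mutants. *Fcer1g*, the Fc receptor gamma chain, was at 2400 and 1320 CPM in the controls and 1970 and 1560 CPM in the mutants. The lipid receptor *Trem2* was at 1640 and 1720 CPM in the controls and 1090 and 1520 CPM in the mutants. The cysteine protease *Ctss* was at 1630 and 2350 CPM in the controls and 1440 and 1900 CPM in the mutants. For *Tyrobp* and *Trem2* both control libraries lay above both mutant libraries, and neither gene was called.

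Against all other kept barcodes, genes of large fold in microglia (at 100 CPM or more and with a UMI in at least 25% of the cells) were *Siglech* (172-fold), *Il1a* (157-fold), *Mpeg1* (155-fold) and *Trem2* (145-fold). Others among the leading 20 were *Bin2*, *Susd3*, *Ctss*, *Bcl2a1b*, *Itgam*, *Ccl4*, *Ighm*, *Selplg*, *Ccl6*, *Cd300c2*, *Crybb1*, *Ccl9*, *Vav1*, *Blnk* and *Gpr34* (120-fold). *Siglech* is a sialic acid-binding lectin, *Il1a* a pro-inflammatory cytokine and *Mpeg1* a pore-forming protein of macrophages. These folds describe the selection and carry no test. They pool the cells of all libraries, and their order differed between libraries. For *Siglech* the fold was smallest in control replicate 1, at 62.4-fold, against 309-fold in mutant replicate 1, 987-fold in control replicate 2 and 601-fold in mutant replicate 2. For *Il1a* it was 45.3-fold and 904-fold in the controls and 836-fold and 198-fold in the mutants. In control replicate 1 both genes lay below *Mpeg1* (72.7-fold), *Trem2* (73.4-fold) and *Blnk* (83.2-fold). The other kept barcodes include the C1q barcodes outside the limits, most of which came from control replicate 1.

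Markers of other immune cells were measured in the members. Of 12 border macrophage genes, *Lyve1*, *Cd163* and *Clec4n* were at 0 in all 158 cells, which allows a share of cells with a UMI of up to 1.90% and sets no limit on cells that express the gene. The summed level of the 12 was 430 and 285 CPM in the controls and 308 and 308 CPM in the mutants, against 16900 CPM in the C1q barcodes with 3 or more *Pf4* UMIs. Both groups were selected on *Pf4*, so this gap is a description of the selection. The largest part in microglia was *Stab1*, a scavenger receptor, at 190 and 113 CPM in the controls and 150 and 119 CPM in the mutants. The monocyte genes *Ccr2* and *Ly6c2* were at 0 in all 158 cells. Of 7 lymphocyte genes, *Cd79b*, a subunit of the B cell receptor complex, was at 58.4 and 66.3 CPM in the controls and 38.8 and 54.7 CPM in the mutants, whereas the T cell genes *Cd3e*, *Cd3d* and *Trbc2* were at 0. Of 5 erythroid genes the summed level did not exceed 9.95 CPM in any library.

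RNA of neural cells was present in part of the cells. There were 15 members with 10 or more UMIs summed over the neuron, astrocyte and oligodendrocyte lineage lists, 6 of them in control replicate 1, 3 in mutant replicate 1, 1 in control replicate 2 and 5 in mutant replicate 2. The most in a single member was 81 UMIs in control replicate 1, 383 in mutant replicate 1, 780 in control replicate 2 and 110 in mutant replicate 2. The summed astrocyte level was 198 and 5470 CPM in the controls and 1140 and 781 CPM in the mutants, and 133 and 389 CPM in the controls and 133 and 695 CPM in the mutants without these members. The astrocyte list was among those that chose these members, so this fall describes the selection. In control replicate 2, 1 cell held 95% of the UMIs of *Fabp7*, a lipid-binding protein of radial glia. The summed pericyte level was 439 CPM in mutant replicate 1 and at most 13.3 CPM in the other libraries, and 1 cell of mutant replicate 1 held 99.3% of its UMIs of *Rgs5*, a pericyte marker. The summed level of 4 ependymal genes was 87.2 CPM in control replicate 1 and at most 9.95 CPM in the other libraries, and 3.06 CPM in control replicate 1 without the members of 10 or more neural UMIs. Whether these barcodes were doublets, engulfed material or free RNA was not tested. The members of 10 or more neural UMIs do not include the cell with *Rgs5*, since the pericyte level of mutant replicate 1 was 545 CPM without them.

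**Figure D2:**
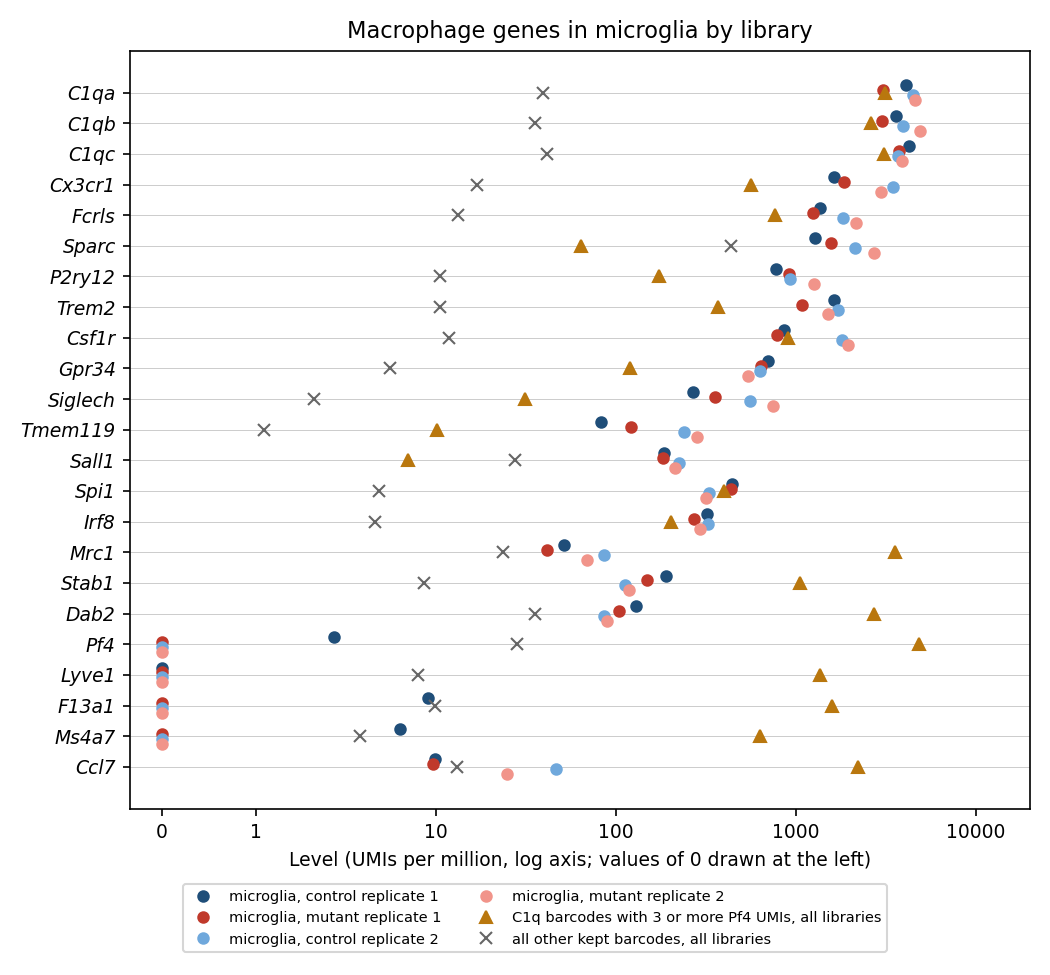
Levels of macrophage genes (CPM, log axis, values of 0 drawn at the left edge) in the microglia of each library (circles), in all C1q barcodes with 3 or more *Pf4* UMIs (triangles) and in all other kept barcodes (crosses). The levels of identity genes vary between the 4 libraries, and *Lyve1* is at 0 in the microglia of each of them.

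The limit on *Mrc1* and *Pf4* left out barcodes that met the other limits. Of 358 kept C1q barcodes, 188 had 3 or more UMIs of *Mrc1*+*Pf4*, and 161 of these had 3 or more of *Cx3cr1*+*P2ry12*. Dividing these by *Pf4*, a platelet factor that marks border macrophages, was chosen after their values had been seen. There were 77 with 3 or more *Pf4* UMIs, 10 with 1 or 2, and 74 with none, 49 of the latter in control replicate 1, 17 in mutant replicate 1, 3 in control replicate 2 and 5 in mutant replicate 2. In these 74 barcodes *P2ry12*, on which they were selected, was at 840 CPM, *Tmem119* at 122 CPM and *Sall1* at 159 CPM, with *Lyve1* at 0, while *Mrc1*, the mannose receptor, was at 466 CPM. In microglia pooled over the libraries the same genes were at 877, 125 and 191 CPM, and *Mrc1* was held low by the rule. By contrast, the 104 C1q barcodes with 3 or more *Pf4* UMIs had *Sall1* at 7.04 CPM, *Lyve1* at 1370 CPM and the monocyte chemoattractant *Ccl7* at 2210 CPM.

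The barcodes with *Mrc1* and no *Pf4* held cell cycle UMIs more often than the microglia of the same library. After each cell was thinned to 2000 UMIs, 3 or more UMIs of the 21 cell cycle genes were found in 34.7% and 66.7% of them in control replicates 1 and 2 and in 41.2% and 60.0% in mutant replicates 1 and 2, against 19.3%, 23.5%, 22.6% and 37.0% of microglia. The difference averaged 25.1 percentage points (SD 12.5, n = 4 libraries) and had the same sign in 4 of 4 libraries, an exact two-sided sign-flip permutation test giving P = 0.125, the smallest value that 4 libraries allow. Replicate 2 contributed only 3 and 5 such barcodes. Before thinning, the group had a median of 15370 and 17690 UMIs in the controls and 12260 and 10110 in the mutants. Microglia had 12010 and 8712 in the controls and 11960 and 5952 in the mutants. Whether this difference in UMIs contributed was not tested. Neural transcripts were also present in this group, with a summed neuron level of 278 CPM against 156 CPM in microglia and a summed astrocyte level of 928 CPM against 890 CPM, and with 680 *Fabp7* UMIs in the 49 barcodes of control replicate 1 against 96 in its 83 microglia. With cells of 10 or more neural UMIs left out of both groups, a comparison added after the data were seen, the difference was 19.7 and 41.7 points in control replicates 1 and 2 and 21.7 and 39.4 points in mutant replicates 1 and 2, from 41, 3, 15 and 3 barcodes. Of the 4 lists compared in this way, the axon-tract list differed by 16.9 points (3 of 4 libraries higher, exact P = 0.375), the interferon list by 8.09 points (2 of 4, exact P = 0.75) and the chemokine list by 6.90 points (3 of 4, exact P = 0.625), and no P was below the threshold before or after adjustment over the 4. These 3 averages leaned on control replicate 2, with 3 such barcodes, which gave 60.8, 33.3 and 35.3 points. Control replicate 1 and mutant replicates 1 and 2 gave −3.1, 0.9 and 8.9 points for the axon-tract list. They gave 3.34, −0.57 and −3.7 points for the interferon list and 8, −31.3 and 15.6 points for the chemokine list.

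Of 8 receptors for niche signals, 7 had enough counts to be tested and *Cd200r1*, the receptor for an inhibitory neuronal signal, was at 18.0 and 0 CPM in the controls and 7.27 and 24.9 CPM in the mutants. *Csf1r* was at 858 and 1820 CPM in the controls and 783 and 1950 CPM in the mutants, with both libraries of replicate 2 above those of replicate 1. Its ligand *Csf1* was at 206 and 285 CPM in the controls and 322 and 214 CPM in the mutants, while *Il34*, the other ligand, had UMIs in mutant replicate 1 alone (4.85 CPM). *Tgfbr1*, a receptor for the cytokine that induces the microglial program, was at 339 and 444 CPM in the controls and 393 and 333 CPM in the mutants. *Tgfbr2* was at 217 and 146 CPM in the controls and 216 and 119 CPM in the mutants. The ligand *Tgfb1* was at 134 and 239 CPM in the controls and 155 and 274 CPM in the mutants, against 6.92 CPM in all other kept barcodes. *Sirpa*, the receptor for the protective signal *Cd47*, was at 677 and 670 CPM in the controls and 710 and 656 CPM in the mutants. The fractalkine gene *Cx3cl1* had UMIs in mutant replicate 2 alone (9.95 CPM). Of 7 niche receptors and 3 niche ligands tested, none was called between the genotypes, and neither was any other of the 5212 genes tested. The receptors include *Cx3cr1*, whose UMIs also chose the members.

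Transcription factors of macrophages and microglia were detected in every library. *Mef2c* was at 1040 and 1090 CPM in the controls and 1280 and 910 CPM in the mutants. *Maf* was at 733 and 1060 CPM in the controls and 773 and 731 CPM in the mutants. *Mef2a* was at 540 and 491 CPM in the controls and 606 and 358 CPM in the mutants. *Spi1* was at 444 and 331 CPM in the controls and 439 and 318 CPM in the mutants, and its partner *Irf8* at 322 and 325 CPM in the controls and 271 and 293 CPM in the mutants. All 13 listed factors were tested and none was called, 4 being higher and 4 lower in the mutant in both replicates. Of all genes tested, 0% were called, 23.4% were higher and 24.4% were lower in both replicates. Of purinergic receptors and ectoenzymes, *P2ry13* was at 111 and 292 CPM in the controls and 107 and 259 CPM in the mutants, and *Entpd1*, which degrades extracellular ATP, at 244 and 219 CPM in the controls and 221 and 149 CPM in the mutants. *Gpr34*, a lysophosphatidylserine receptor, was at 703 and 630 CPM in the controls and 640 and 542 CPM in the mutants, with both mutants inside or below the control range.

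Lysosomal and engulfment genes were prominent. The summed level of 23 genes was 60700 and 53700 CPM in the controls and 40600 and 47500 CPM in the mutants, against 7370 CPM in all other kept barcodes. *Apoe*, the lipid carrier, was at 19000 and 19500 CPM in the controls and 8390 and 12400 CPM in the mutants, and both controls lay above both mutants. Its log2 change was −0.91 with an SE of 0.33 (adjusted P = 1 by edgeR's quasi-likelihood test). *Apoe* UMIs were also found in 40% and 38.2% of the neuron-rich barcodes of control and mutant replicate 1 and in 96.0% and 100% of those of replicate 2, so this share was higher in both libraries of replicate 2. The cathepsin *Ctsb* was at 5440 and 4510 CPM in the controls and 4210 and 4370 CPM in the mutants. *Ctsl* was at 6470 and 3140 CPM in the controls and 4190 and 2540 CPM in the mutants. Among the receptors for dying cells, *Mertk* was at 442 and 245 CPM in the controls and 317 and 199 CPM in the mutants, whereas *Axl* did not exceed 21.8 CPM. Of 22 genes tested, none was called, 14 were lower in the mutant in both replicates and none was higher. The corresponding shares of all 5212 genes tested were 0%, 24.4% and 23.4%. The median log2 change of the 22 was −0.25, against 0.0046 for all genes tested.

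Complement genes beyond C1q were unevenly expressed. The receptor chain *Itgam* was at 230 and 438 CPM in the controls and 259 and 383 CPM in the mutants, its partner *Itgb2* at 49.4 and 86.2 CPM in the controls and 38.8 and 34.8 CPM in the mutants. *C3*, the ligand that these chains bind once it is cleaved, was at 6.29 and 19.9 CPM in the controls and 2.42 and 4.97 CPM in the mutants, with UMIs in 5.06% of microglia. Of antigen presentation genes, *B2m* was at 1250 and 1520 CPM in the controls and 994 and 1530 CPM in the mutants, and *Cd74*, the class II invariant chain, at 62.9 and 338 CPM in the controls and 96.9 and 214 CPM in the mutants, with UMIs in 24.7% of microglia. Of the class II genes proper, *H2-Ab1* had UMIs in 8.23% of the cells, whereas *H2-Eb1* and the class II activator *Ciita* were at 0 in all 158.

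The spread of each gene among single microglia was measured by the Fano factor. Among 5615 genes with a mean of at least 0.05 UMI in cells thinned to 2000 UMIs, *Spp1* had the highest mean Fano factor over the libraries (variance over mean, 45.6), where the median gene was at 1.03. That rank rested on control replicate 1, where *Spp1* was at 82.2. In mutant replicate 1 it was at 52.2, below the 94.3 of *Gm42418*, in control replicate 2 at 40, below the 66.2 of *Fabp7*, and in mutant replicate 2 at 8.13, below the 19.6 of *Apoe*. The next in order were *Gm42418*, *Apoe*, *Fabp7*, *Tmsb4x*, *Malat1*, *Ptn*, *Ccl4*, *Fabp5*, *Cmss1*, *Ptprz1*, *mt-Atp6*, *Ctsl*, *Ccl3* and *mt-Co3*. Ranks of other genes also leaned on single libraries. *Gm42418* was at 4.74 and 34 in control replicates 1 and 2 and at 13 in mutant replicate 2. *Cmss1* was at 23.8 in mutant replicate 1 and at 1.98 in control replicate 1. In replicate 2 the level of *Cmss1* was 0 CPM in the control and 14.9 CPM in the mutant, against 1460 and 1770 CPM in replicate 1. *Fabp7*, *Ptn* and *Ptprz1* are genes of neural progenitors and glia, and 628 of the 661 *Fabp7* UMIs of control replicate 2 were in 1 member with 10 or more neural UMIs. *Spp1* (chromosome 5), which encodes osteopontin, was at 8770 and 1860 CPM in the controls and 3510 and 244 CPM in the mutants. It had UMIs in 32 of 83 and 2 of 17 control cells and in 5 of 31 and 3 of 27 mutant cells, with up to 1950 UMIs in 1 cell. A single cell held 20% and 98.9% of the *Spp1* UMIs in control replicates 1 and 2 and 62.2% and 93.9% in mutant replicates 1 and 2. In the neuron-rich barcodes, 2.78% and 1.01% of the controls and 1.14% and 0.8% of the mutants had a UMI.

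**Figure D3:**
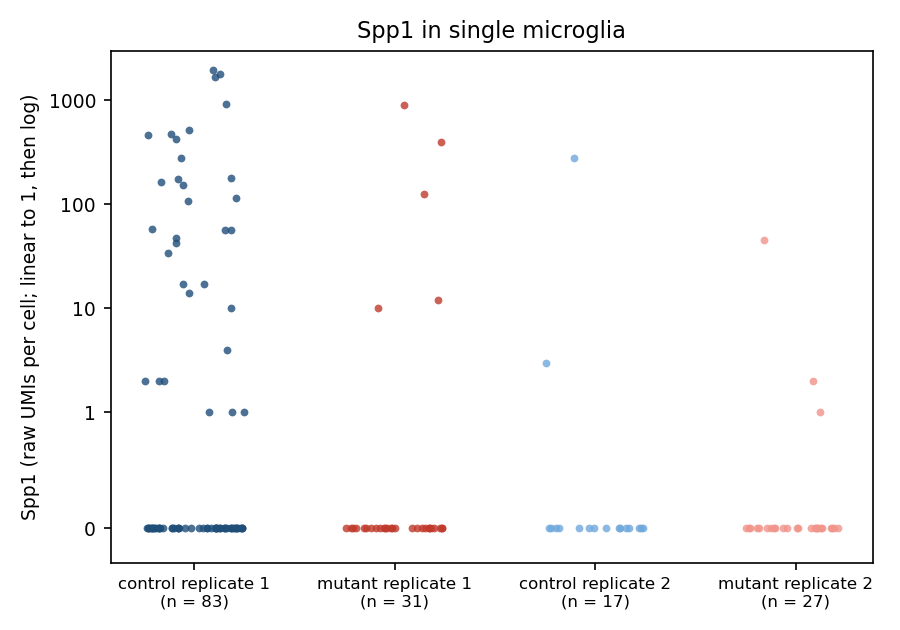
Raw *Spp1* UMIs in each microglia (points, jittered sideways) by library, on an axis linear to 1 and logarithmic above. Most cells are at 0 in every library, and 32 of 83 cells of control replicate 1 have a UMI, against 5 of 31, 2 of 17 and 3 of 27 in mutant replicate 1, control replicate 2 and mutant replicate 2.

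*Spp1* belongs to the axon-tract state, in which microglia of the early postnatal white matter express *Spp1*, *Gpnmb*, *Itgax*, *Igf1* and *Lpl*, and 7 of its 8 listed genes were measured. *Gpnmb*, a lysosomal glycoprotein, was at 188 and 6.63 CPM in the controls and 31.5 and 0 CPM in the mutants. *Igf1*, a growth factor, was at 538 and 159 CPM in the controls and 427 and 234 CPM in the mutants. *Lpl*, a lipase, was at 442 and 404 CPM in the controls and 402 and 547 CPM in the mutants. After thinning, 28 of 83 cells of control replicate 1 (33.7%, exact Clopper-Pearson 95% interval 23.7% to 44.9%) had 3 or more UMIs of the list, against 7 of 31 in mutant replicate 1 (22.6%, 9.59% to 41.1%), 1 of 17 in control replicate 2 (5.88%, 0.149% to 28.7%) and 3 of 27 in mutant replicate 2 (11.1%, 2.35% to 29.2%). These and the following intervals cover counting error only. In the neuron-rich barcodes the share was at most 0.199%. The means were 19.8% ± 19.7 in control and 16.8% ± 8.11 in mutant (SD, n = 2 libraries), a difference of −2.96 points that was −11.2 within replicate 1 and 5.23 within replicate 2 (exact two-sided permutation P = 1). At a limit of 5% mitochondrial UMIs, which left 3 cells in control replicate 2 and 16 in mutant replicate 2, the difference was −23.0 points. With 4 libraries this exact permutation test cannot go below P = 0.333.

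Cell cycle and axon-tract transcripts were then compared within cells. After thinning, the 21 cell cycle genes gave 3 or more UMIs in 16 of 83 cells of control replicate 1 (19.3%, 11.4% to 29.4%), 7 of 31 of mutant replicate 1 (22.6%, 9.59% to 41.1%), 4 of 17 of control replicate 2 (23.5%, 6.81% to 49.9%) and 10 of 27 of mutant replicate 2 (37.0%, 19.4% to 57.6%). Of the 158 cells, 3 passed for both lists, 34 for the cell cycle alone, 36 for the axon-tract list alone and 85 for neither, whereas without thinning, a setting added after the data were seen, 75 cells passed for both. *Top2a*, the topoisomerase of replicating cells, was at 103 and 106 CPM in the controls and 121 and 209 CPM in the mutants. *Pcna*, the replication clamp, was at 102 and 133 CPM in the controls and 126 and 264 CPM in the mutants. *Mki67*, the proliferation marker, was at 46.7 and 172 CPM in the controls and 89.7 and 154 CPM in the mutants. Neuron-rich barcodes, which passed the same limit in 24.5% and 16.2% of the controls and 27.9% and 18.4% of the mutants, were thus not free of these transcripts. Whether they transcribed these genes themselves was not tested, so they do not gauge free RNA for this list. The share of microglia was 21.4% ± 3.01 in control and 29.8% ± 10.2 in mutant (SD, n = 2), a difference of 8.41 points, 3.30 within replicate 1 and 13.5 within replicate 2 (exact two-sided permutation P = 0.667). The direction turned in cells with at most 5% mitochondrial UMIs (−1.36 points, with 3 cells left in control replicate 2 and 16 in mutant replicate 2) and without thinning (−3.19 points).

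Chemokine transcripts were found in many of the cells. *Ccl3* was at 967 and 1330 CPM in the controls and 1410 and 681 CPM in the mutants. *Ccl4* was at 960 and 902 CPM in the controls and 1600 and 880 CPM in the mutants. *Ccl2*, which attracts monocytes, was at 130 and 232 CPM in the controls and 373 and 134 CPM in the mutants. *Ccl12* was at 96.1 and 239 CPM in the controls and 344 and 164 CPM in the mutants. Mutant replicate 1 was the highest library for each of these 4 genes. The list gave 3 or more thinned UMIs in 41.0% and 64.7% of control cells and 54.8% and 44.4% of mutant cells, and in none of the neuron-rich barcodes.

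Interferon response genes were measured next. Of 16 genes, 15 had a UMI, and the summed level was 278 and 199 CPM in the controls and 327 and 288 CPM in the mutants, against 1550 CPM in the C1q barcodes with 3 or more *Pf4* UMIs. In all other kept barcodes it was 108 and 230 CPM in the controls and 103 and 257 CPM in the mutants, so that microglia were higher in 3 libraries and lower in control replicate 2. *Bst2*, a membrane restriction factor, was at 170 and 113 CPM in the controls and 145 and 164 CPM in the mutants. The share with 3 or more UMIs was 4.82% and 0% in the controls and 6.45% and 3.70% in the mutants, or 4, 0, 2 and 1 cells, and a count of 0 in the 17 cells of control replicate 2 allows a share of up to 17.6% (3 cells of 17), with an exact 95% upper limit of 19.5%. The difference of 2.67 points (exact two-sided permutation P = 0.667) came from a test that 4 libraries cannot bring below P = 0.333, and it turned to −3.97 points without thinning, −0.602 at 5 or more UMIs and −4.09 at 2 or more.

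**Figure D4:**
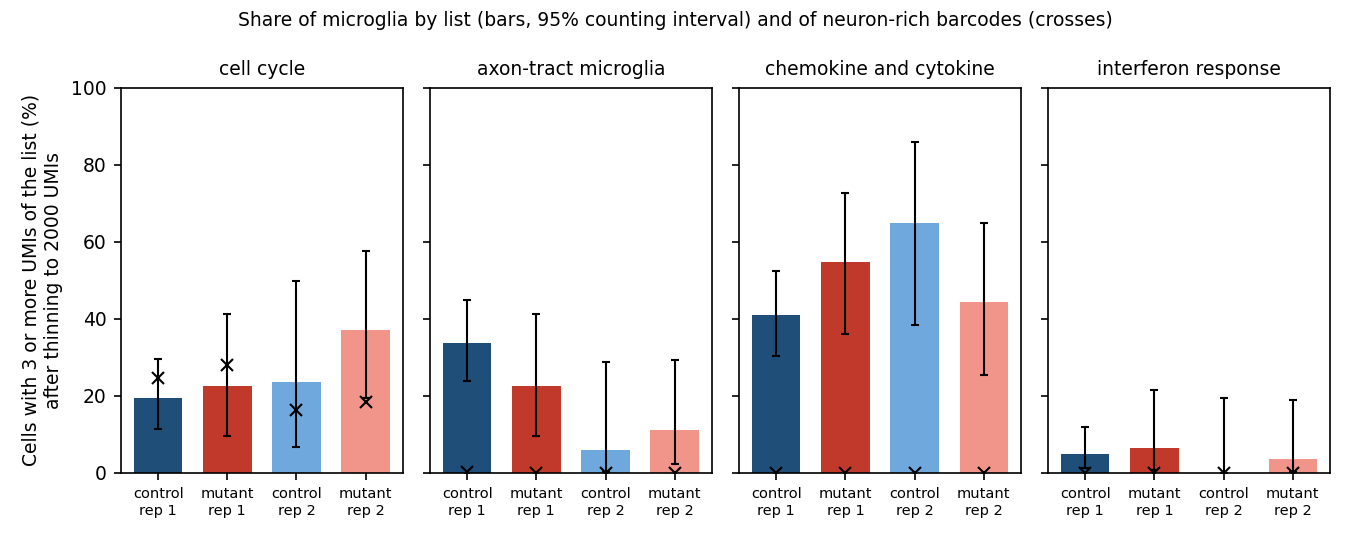
Share of microglia with 3 or more UMIs of each list after thinning to 2000 UMIs (bars, percent of cells, with exact 95% counting intervals) in the 4 libraries, and the same share in neuron-rich barcodes (crosses). The axon-tract bar is highest in control replicate 1 (33.7%), the cell cycle bar in mutant replicate 2 (37.0%), and the intervals of the libraries overlap in every panel.

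The study asked how a heterozygous *Chd8* mutation induced in neural progenitors affects the sorted cells. *Chd8* (chromosome 14, mm10, 52198151 to 52257780, minus strand) was at 55.7 and 59.7 CPM in the microglia of the controls and 58.2 and 59.7 CPM in those of the mutants, from 62 and 9 UMIs and from 24 and 12 UMIs. Counts over the whole gene do not separate a recombined from an intact allele. *Nes*, whose promoter drives the Cre, was at 21.6 and 33.1 CPM in the controls and 29.1 and 69.6 CPM in the mutants, and at 21.4 and 37.4 CPM and 33.1 and 44.7 CPM without the members of 10 or more neural UMIs. Its UMIs were found in 21.7% and 23.5% of control microglia and 25.8% and 29.6% of mutant microglia. In neuron-rich barcodes the shares were 16.1% and 22.2% in the controls and 18.5% and 27.2% in the mutants. Whether the *Nes* UMIs of microglia were free RNA was not tested. *Xist* was found in 0 of 83 and 16 of 17 control cells and in 0 of 31 and 21 of 27 mutant cells. Genes of the Y chromosome (*Ddx3y*, *Uty*, *Kdm5d* and *Eif2s3y*) were found in 71 and 0 control cells and in 26 and 1 mutant cells, and no cell held both. The replicates thus differed in sex in both genotypes, so that sex was balanced between genotypes and confounded with the replicate, whereas the study gives male mice for these samples.

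Microglia made up 1.45% of kept barcodes in control replicate 1 (1.16% to 1.80%), 0.548% in mutant replicate 1 (0.372% to 0.777%), 0.572% in control replicate 2 (0.333% to 0.914%) and 0.823% in mutant replicate 2 (0.543% to 1.20%). Mutant replicate 2 lay between the controls and mutant replicate 1 just below the lower of them, and the intervals of mutant replicate 1, control replicate 2 and mutant replicate 2 overlapped. The mean share was 1.01% ± 0.624 in control and 0.685% ± 0.195 in mutant (SD, n = 2), a difference of −0.327 points (exact two-sided permutation P = 0.667) that was −0.906 within replicate 1 and 0.251 within replicate 2. Without control replicate 1 the difference was 0.114 points, so the direction rested on that library. With the 74 Pf4-negative barcodes added, the shares were 2.31% and 0.673% in the controls and 0.848% and 0.975% in the mutants.

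No gene was called between the genotypes. Counts summed over the microglia of each library were tested for 5212 genes with edgeR's quasi-likelihood test, and 0 genes (0% of those tested) reached an adjusted P of 0.05, while 36 had an unadjusted P under 0.05. DESeq2 called 0 as well, with 14 at an unadjusted P under 0.05. The count rested on the libraries included: edgeR called 42 genes without control replicate 1, 25 without control replicate 2, 1 without mutant replicate 1 and 24 without mutant replicate 2, each time with a single library left in 1 group. The smallest P-values belonged to *Gria2*, *Cald1*, *Grm5*, *Il1a* and *Acot1*, from 0.00226 to 0.0114 before and at 1 after adjustment by edgeR. Of these, *Acot1*, an acyl-CoA thioesterase, was lower in the mutant in both replicates, at 63.8 and 113 CPM in the controls and 24.2 and 19.9 CPM in the mutants (log2 change −1.77, SE 0.52). Without the members of 10 or more neural UMIs, 1 cell in control replicate 2, it was at 48.0 and 37.4 CPM in the controls and 15.1 and 12.8 CPM in the mutants.

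With the replicate as a block, a term that also takes up the software version and the sex, 20 of the 5212 genes (0.384%) were called by edgeR, 19 higher (0.365%) and 1 lower (0.0192%) in the mutant, and 13 of the 20 moved the same way in both replicates. The dispersion estimate, the spread between libraries, had infinite prior degrees of freedom with the block (common value 0.0562), against 5.04 (0.147) without it. A gene's own spread thus carried no weight in that estimate. Block P-values of genes whose UMIs lay mostly in single cells may therefore be too small, which was not tested. *Grm5*, a metabotropic glutamate receptor, was at 1.80 and 33.1 CPM in the controls and 233 and 84.5 CPM in the mutants, but 1 cell held 87.5% of its UMIs in mutant replicate 1, and 95 of the 96 UMIs of that library lay in the members with 10 or more neural UMIs. Without those members *Grm5* was at 2.04 and 0 CPM in the controls and 3.01 and 12.8 CPM in the mutants. *Lsamp*, an adhesion protein of neurons, was at 52.1 and 6.63 CPM in the controls and 439 and 24.9 CPM in the mutants, and at 18.4 and 0 CPM and 21.1 and 6.38 CPM without those members. *Gria2*, a glutamate receptor subunit, went from 13.5 and 13.3 CPM in the controls and 89.7 and 69.6 CPM in the mutants to 6.12 and 7.47 CPM and 15.1 and 19.1 CPM. The others that moved the same way were *Cald1*, *Npas3*, *Cxcl10*, *Gpm6a*, *Zbtb20*, *Tubb3*, *Ctnna2*, *Nlgn1* and *Il1a*, all higher in the mutant, and *Spp1*, the 1 gene called lower. Without the members of 10 or more neural UMIs *Npas3*, a neural transcription factor, went from 62.0 and 0 CPM in the controls and 364 and 9.95 CPM in the mutants to 7.14 and 0 CPM and 0 and 6.38 CPM. *Tubb3*, a neuronal tubulin, went from 34.1 and 0 CPM and 72.7 and 139 CPM to 20.4 and 0 CPM and 9.04 and 0 CPM. Since *Tubb3* is in the neuron list whose UMIs chose the members left out, its fall describes that choice. *Gpm6a*, a neuronal membrane glycoprotein, went from 18.9 and 66.3 CPM and 121 and 119 CPM to 10.2 and 7.47 CPM and 9.04 and 63.8 CPM. *Ctnna2*, a catenin of neuronal junctions, went from 70.1 and 13.3 CPM and 269 and 34.8 CPM to 14.3 and 7.47 CPM and 18.1 and 12.8 CPM, and *Nlgn1*, a synaptic adhesion protein, from 53.9 and 6.63 CPM and 206 and 14.9 CPM to 12.2 and 7.47 CPM and 21.1 and 12.8 CPM. For *Cald1*, a protein of the contractile cytoskeleton, 31 of its 35 UMIs in mutant replicate 1 lay in 1 cell with fewer than 10 neural UMIs, so that its level there was 84.8 CPM with and 96.4 CPM without the members of 10 or more. Among the 7 that moved in opposite directions were *Slc1a2*, *Grm3*, *Pcdh7*, *Sparcl1*, *Ctnnd2* and *Cadm2*.

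Left without the 15 members of 10 or more neural UMIs, a choice made after the values were seen, the block fit tested 4268 genes and called 10 (0.234%), 8 higher (0.187%) and 2 lower (0.0469%). Of the 20 genes, 15 no longer had enough counts to be tested, and 3, *Cxcl10*, *Il1a* and *Spp1*, were called in both fits. The other 2 were tested and no longer called by edgeR: *Zbtb20*, a transcription factor, at 272 and 66.3 CPM in the controls and 870 and 274 CPM in the mutants before and 144 and 37.4 CPM and 259 and 134 CPM after the exclusion (block log2 change 1.74 and 0.99, adjusted P = 0.000146 and 0.387), and *Sparcl1* (1.77 and 0.62, adjusted P = 0.00529 and 1). Without the block and with all members, the log2 change of *Zbtb20* was 1.63. It was 2.92 and 1.01 without control replicates 1 and 2, and 0.559 and 2.19 without mutant replicates 1 and 2. The 7 called only after the exclusion were *Gpr84*, *Marcksl1*, *Ier2*, *Pclaf*, *Rrm2*, *Ptn* and *Hist1h1c*. *Gpr84*, a medium-chain fatty acid receptor of activated microglia, was at 54.1 and 22.4 CPM in the remaining controls and 154 and 134 CPM in the remaining mutants (log2 change 1.57, adjusted P = 0.0265 by edgeR). With all members the block fit gave 1.41 for *Gpr84* (adjusted P = 0.0719 by edgeR). With the 74 barcodes of *Mrc1* and no *Pf4* added to all members, it gave 1.04 (adjusted P = 0.0975 by edgeR). The histone gene *Hist1h1c* was at 143 and 224 CPM in the controls and 66.3 and 51.0 CPM in the mutants (log2 change −1.46, adjusted P = 0.0269 by edgeR). Its block fits gave −1.25 with all members (adjusted P = 0.0922 by edgeR) and −1.04 with those barcodes added (adjusted P = 0.0401 by edgeR).

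*Il1a* was at 73.7 and 72.9 CPM in the controls and 257 and 154 CPM in the mutants, and both mutants lay above both controls. It had UMIs in 32 of 83 and 6 of 17 control cells and in 16 of 31 and 5 of 27 mutant cells, and 1 cell held 67.7% of the UMIs of mutant replicate 2. Its log2 change was 1.46 with an SE of 0.36 with the block (adjusted P = 0.0175 by edgeR), 1.70 within replicate 1 and 1.02 within replicate 2. With the 74 barcodes of *Mrc1* and no *Pf4* added, it was 0.96 (adjusted P = 0.0989 by edgeR with the block). *Cxcl10*, an interferon-induced chemokine whose promoter window held the spaced GAAA pair shown above, was at 77.3 and 0 CPM in the controls and 257 and 194 CPM in the mutants. Its UMIs came from 5 and 0 control cells and from 3 and 3 mutant cells. In mutant replicate 2 the 39 UMIs lay in 3 of 27 cells (11.1%), and 1 cell held 69.2% of them. A count of 0 in the 17 cells of control replicate 2 allows a share of cells of up to 19.5% (exact upper limit), above that of the mutant. No smallest fold between these 2 libraries is therefore given. Within replicate 1 the log2 change was 1.64, and the block fit gave 2.26 with an SE of 0.38 (adjusted P = 4.44e-06 by edgeR), although the counts came from the few cells given above. Without the block the log2 change was 2.11, and it was 4.89 without control replicate 1, 1.46 without control replicate 2, 1.86 without mutant replicate 1 and 2.23 without mutant replicate 2.

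*Spp1* was lower in the mutant by 1.36 on the log2 scale within replicate 1 and by 2.94 within replicate 2 (log2 change −2.08, SE 0.37, adjusted P = 2.34e-05 by edgeR with the block, and −1.54, SE 1.11, adjusted P = 1 without it). In replicate 2 this comparison set in large part 1 cell against 1 cell, since 278 of the 281 control UMIs and 46 of the 49 mutant UMIs each lay in a single cell. With the 74 barcodes of *Mrc1* and no *Pf4* added, which held 904 and 0 *Spp1* UMIs in the controls and 5683 and 0 in the mutants, the block fit gave −0.79 (adjusted P = 0.386 by edgeR). Of the 5683 added UMIs, 4019 lay in 1 barcode. The difference in *Spp1* thus depended on few barcodes outside the limit on *Mrc1*. It also depended on single libraries, since without the block the log2 change was −0.055 without control replicate 1, −2.28 without control replicate 2, −4.46 without mutant replicate 1 and −0.68 without mutant replicate 2.

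**Figure D5:**
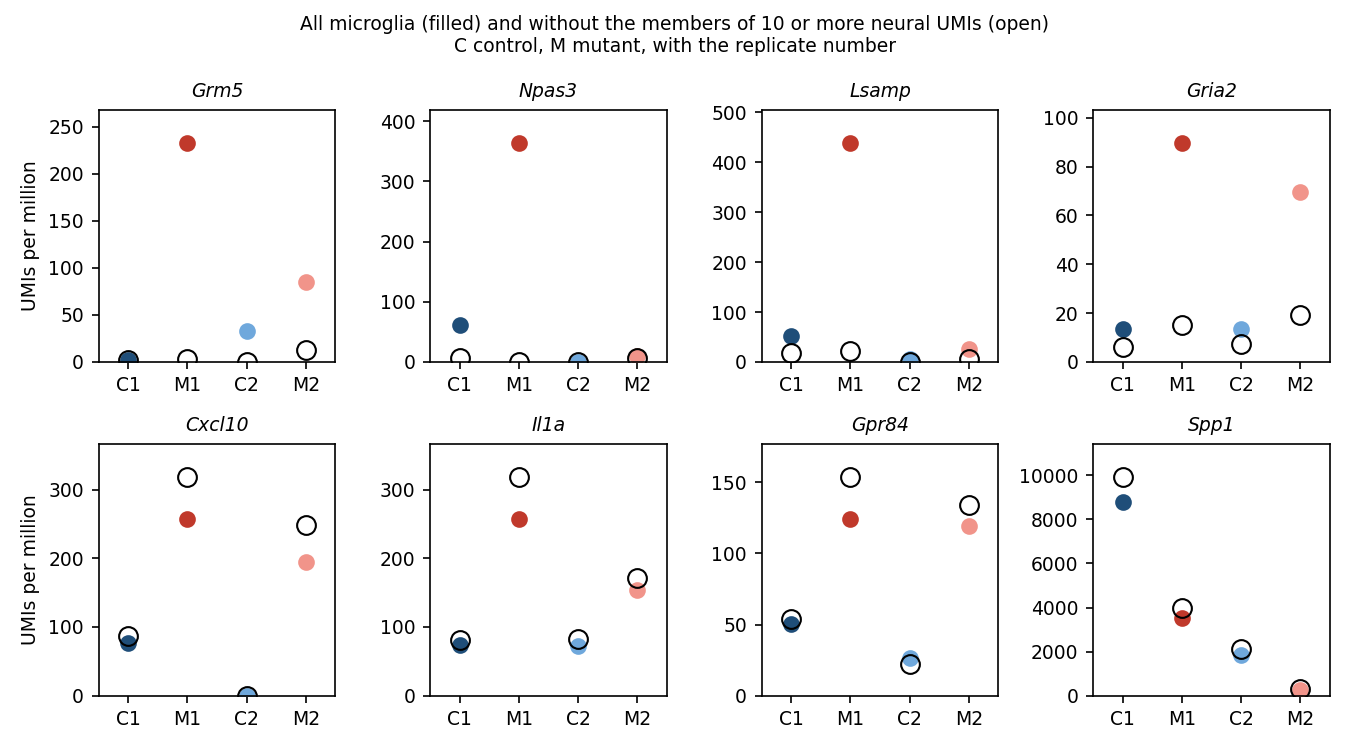
Levels (CPM) of 8 genes in the microglia of each library, with all members (filled) and without the members of 10 or more neural UMIs (open). *Grm5* and *Lsamp* fall from 233 and 439 CPM in mutant replicate 1 to 3.01 and 21.1 CPM, and *Il1a* is higher in both mutant libraries with and without those members.

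The summed level of immediate early and heat shock genes was higher in both mutant libraries than in both control libraries, although none of the genes was called with all members. These genes respond within minutes to signals and to handling of tissue. Their summed level was 4940 and 3680 CPM in the controls and 7210 and 6400 CPM in the mutants, whereas in all other kept barcodes it was 2920 and 2720 CPM in the controls and 2430 and 2740 CPM in the mutants. After thinning, the share of microglia with 3 or more UMIs of the list overlapped, at 79.5% and 76.5% in the controls and 74.2% and 77.8% in the mutants. At 5 or more UMIs it was 61.4% and 52.9% in the controls and 64.5% and 74.1% in the mutants. *Jun* was at 412 and 530 CPM in the controls and 603 and 1160 CPM in the mutants. *Junb* was at 687 and 497 CPM in the controls and 843 and 502 CPM in the mutants. *Fos* was at 526 and 345 CPM in the controls and 1170 and 184 CPM in the mutants, and so moved in opposite directions in the replicates. *Atf3*, a stress-induced factor, was at 177 and 133 CPM in the controls and 330 and 393 CPM in the mutants. *Hspa1b*, an inducible chaperone, was at 59.3 and 79.6 CPM in the controls and 26.7 and 627 CPM in the mutants, the high value belonging to mutant replicate 2 alone. Of 18 genes tested, 8 were higher in the mutant in both replicates and none lower, where 23.4% and 24.4% of all genes tested did so, and the median log2 change was 0.62. With all members none was called with or without the block, where 0.384% and 0% of all genes tested were. *Ier2* was called with the block once the members of 10 or more neural UMIs were left out (log2 change 1.34, adjusted P = 0.0269 by edgeR). With the 74 barcodes of *Mrc1* and no *Pf4* added to all members, the block fit gave 0.84 (adjusted P = 0.167 by edgeR). Without the block the log2 change of *Ier2* was 1.12, and 2.45 and 0.519 without control replicates 1 and 2. It was 0.377 and 1.54 without mutant replicates 1 and 2. Whether handling of the tissue contributed was not tested.

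Among the remaining lists, the 7 chemokine and cytokine genes tested included 2 called with the block (*Il1a* and *Cxcl10*), 3 higher in the mutant in both replicates and 0 lower. Over all 5212 genes tested, 0.384% were called with the block, 23.4% were higher in both replicates and 24.4% lower. Of 14 cell cycle genes tested, 8 were higher and 2 lower in both replicates, with a median log2 change of 0.51. Of 95 genes tested from the 100 that the study listed for its microglia, 9 were higher and 32 lower in both replicates, with a median of −0.07. The study defined such sets from data of earlier studies. The 95 include *C1qa*, *C1qb*, *C1qc*, *Cx3cr1* and *P2ry12*, whose UMIs chose the members.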

How the data were processed

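Single-cell libraries were prepared with the 10x Chromium 3' v3.1 chemistry, with an input of 5000 cells each. The authors deposited raw UMI counts per gene and barcode for each library, made with Cell Ranger on mm10. The file headers name version 7.0.0 for replicate 1 and 5.0.1 for replicate 2, and the submitters' processing notes name 3.0. Depth was 79328841 and 46274374 UMIs in the control libraries and 78211984 and 50616343 in the mutant libraries. Microglia, limits and gene lists were chosen with earlier results of these data known. No doublet caller was run. Neuron-rich barcodes had at least 30 UMIs of *Dcx*+*Stmn2*+*Gap43* and fewer than 10 C1q UMIs, and served as a comparison for free RNA, though not for genes that they may transcribe themselves.

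Counts summed over the microglia of a library were tested with edgeR 4.0.16 (filterByExpr, TMM, genotype only, prior count of 2, Benjamini-Hochberg adjusted P under 0.05), and DESeq2 1.42.0 was an alternative. Changes within a replicate came from TMM-scaled log2 CPM (prior count of 2) of 1 library per genotype. Shares were compared by exact two-sided permutation over 4 libraries. Named genes were the most abundant of each list and members of receptor and ligand sets, the 20 of largest fold over other barcodes, the 5 of smallest P, those called with the replicate block and the 15 of highest Fano factor. Others, such as *Slc2a5*, *Tmem119*, *Atf3*, *Hspa1b* and the genes called after exclusion of members with neural UMIs, were chosen after their values were seen. Alternatives covered normalization, filters, thresholds, thinning and each library left out. A few genes are not reported here. The statistics were tested on simulated counts per library, which did not model UMIs concentrated in single cells.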

Additional observations from a re-analysis of the deposited data

How the results depend on the processing

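The microglia came from 4 libraries, 17 of the cells in control replicate 2, so differences between genotypes rest on few cells, and no permutation over libraries could reach P = 0.05. The mutant minus control difference in the share of microglia ranged from −0.768 to 0.114 percentage points when 1 library was left out, and it was positive without control replicate 1 (0.114). For the cell cycle share the range was 1.18 to 15.6 points, with −3.19 points when cells were not thinned and −1.36 points at a limit of 5% mitochondrial UMIs, where control replicate 2 kept 3 cells. For the axon-tract share it was −16.9 to 11.0 points, with positive differences without control replicate 1 (11.0) or mutant replicate 2 (2.77) and −23.0 points at the 5% mitochondrial limit. For the interferon share it was 0.258 to 5.08 points, with −3.97 points without thinning, −0.602 at 5 or more UMIs and −4.09 at 2 or more.

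Against 0 genes called by edgeR (36 at an unadjusted P under 0.05), 40 were called with no filter on low counts, 20 with the replicate block and 1 to 42 when 1 library was left out. These last fits had 1 library in a genotype, which was taken to vary like the others. Added after seeing the data, the block gave 10 without members of 10 or more neural UMIs, 50 with the Pf4-negative barcodes and 7 with at least 10 counts in every library. DESeq2, no TMM, a minimum of 10 counts, the 5% mitochondrial limit, stricter thresholds, exclusion of neural UMIs and added Pf4-negative barcodes, each without the block, gave 0. As a check of the pairing, deviations of same-numbered libraries correlated at 0.475 across genes, a single independent value from 2 pairs, and the labels do not say that a number marks a shared litter or day.

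Over 27 named genes, 186 of 198 gene and alternative pairs kept the direction of the log2 change and 12 did not. When 1 library was left out, the log2 change turned negative without mutant replicate 1 for 7 genes, ranging from −0.417 to 4.04 for *Lsamp*, −1.56 to 4.66 for *Npas3*, −0.436 to 2.92 for *Ctnna2*, −0.65 to 2.77 for *Ctnnd2*, −0.224 to 3.25 for *Cadm2*, −1.05 to 3.05 for *Nlgn1* and −0.245 to 4.18 for *Sparcl1*. For *Sparcl1* it was also −0.06 without mutant replicate 1, and the lowest value came without control replicate 1, as for *Slc1a2* (−0.0376 to 3.72). *Ptn* ranged from −1.61 to 3.78, the highest without control replicate 2, and turned from −0.633 to 0.876 with the replicate block and to 1.68 with the block and no members of 10 or more neural UMIs. The causes were not tested.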
